A study of Mus musculus with 45 samples.

Results

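Cp, Rfx4, Fam181a and Sox21 were chosen from the deposited gene table of a mouse embryonic stem cell (mESC) differentiation because their levels were low wherever BMP4 had been given together with retinoic acid (RA). They are 4 of the 11220 genes in that table, each was found under its own symbol, and a filter on low values removed none of them. The contrasts of combined treatment against the other treatments chose these genes, so those contrasts are given below as a description, with no test. Tests were made only on other contrasts, most of which share libraries with the choosing ones. Only day 3 against the undifferentiated cells (D3 against D0) and the 6 h groups (B6hr against R6hr) share none. For the rest, shares of all genes set beside the 4 genes are not like for like.

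RFX4 is a winged-helix transcription factor of the RFX family that binds X-box sequences, is made in the neural tube and brain, and is known for its part in dorsal brain patterning and in ciliary gene expression. SOX21 is a SOXB2 transcription factor that is made in neural progenitors beside the SOXB1 factors SOX1, SOX2 and SOX3 and can oppose their activity at shared targets. Cp encodes ceruloplasmin, a copper-carrying ferroxidase that oxidises iron leaving the cell, made in liver and also in glia. Fam181a is a little characterised gene with a neural expression pattern. BMP4 is a ligand that holds early ectoderm back from neural fate and later patterns the dorsal neural tube, and RA promotes spinal neural fate.

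The study took 45 bulk RNA libraries in 15 groups of 3 from mESCs guided toward spinal sensory interneurons, and its design text names 3 independent differentiations. D0 libraries came from the undifferentiated cells. D3 libraries came from the neuromesodermal progenitor stage, made with basic FGF and CHIR, which activates WNT signalling, and all treated groups passed through that stage. R groups then received 100 nM RA alone, by the sample titles between day 3 and day 5. They were taken on day 4 (R4, after 24 h of RA), day 5 (R5), day 7 (R7) and day 9 (R9). Libraries of day 7 and day 9 were thus taken after treatment had ended, in all treatments. B groups received 24 h of RA, followed by 24 h of RA plus BMP4 at 10 ng/ml, and were taken on day 5 (B5), day 7 (B7) and day 9 (B9). M groups received RA and BMP4 together from day 3, for 48 h except in M4, which was taken at 24 h on day 4. The others were taken on day 5 (M5), day 7 (M7) and day 9 (M9). M therefore differs from B in the start and the length of the BMP4 exposure, and these cannot be told apart. R6hr and B6hr were taken on day 4.25, 6 h into the second 24 h. Statements of the RA interval in the labels do not match one another (1 day apart), so days here are those of the sample titles.

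Values are the authors' normalized level of a gene in a library, whose unit is not named. Whether the level is divided by gene length is not known here, so levels of different genes are not compared. Levels summed to 12245725 to 15868724 per library, and the read depth behind each value is unknown. Changes are differences of log2(level + 1), which understate the change of low values, with a standard error (SE) from limma-trend, and a gene was called where its Benjamini-Hochberg adjusted p over all 11220 genes was under 0.05. The table is a selection: each of its genes has a false discovery rate below 0.1 in 1 or more of the authors' comparisons among treated groups. In bulk RNA, fewer cells that make a gene and less of its RNA per cell cannot be told apart.

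Some libraries stood apart from their group. Pou5f1, a pluripotency gene, was at 3064, 2678 and 22336 in the D0 libraries numbered 1, 2 and 3, while the neuronal tubulin gene Tubb3 was at 6070, 8907 and 2171. Tubb3 was at 273, 5477 and 4967 in D3. Results that rest on D0 or D3 are therefore given with and without these libraries.

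The stretch just before the start site is shown for each of the 4 genes, since they were low in the same groups and this is the sequence nearest to the start of each. It is the 250 bases before the RefSeq start site on GRCm38.p6, 5′ to 3′ on the strand of the gene, and capitals mark ACAAAG or ACAATG on either strand, a pair of 6-base forms that SOX factors can bind.
Rfx4, chr10:84755798-84756047, plus strand: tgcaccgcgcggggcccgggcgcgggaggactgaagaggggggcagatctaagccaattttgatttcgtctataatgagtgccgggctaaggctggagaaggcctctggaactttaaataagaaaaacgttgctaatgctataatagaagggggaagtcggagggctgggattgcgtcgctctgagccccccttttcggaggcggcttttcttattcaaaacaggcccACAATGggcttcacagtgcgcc
Sox21, chr14:118237031-118237280, minus strand: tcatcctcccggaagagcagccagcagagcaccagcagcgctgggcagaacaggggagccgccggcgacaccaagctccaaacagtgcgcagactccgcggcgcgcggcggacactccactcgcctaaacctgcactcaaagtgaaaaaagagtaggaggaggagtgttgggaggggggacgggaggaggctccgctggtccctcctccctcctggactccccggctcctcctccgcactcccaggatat
Fam181a, chr12:103314709-103314958, plus strand: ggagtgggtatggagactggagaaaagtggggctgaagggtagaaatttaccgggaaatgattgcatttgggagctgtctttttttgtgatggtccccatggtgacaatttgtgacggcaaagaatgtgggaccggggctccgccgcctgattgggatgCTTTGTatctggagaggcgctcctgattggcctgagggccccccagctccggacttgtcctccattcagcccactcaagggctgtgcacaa
Cp, chr3:19956804-19957053, plus strand: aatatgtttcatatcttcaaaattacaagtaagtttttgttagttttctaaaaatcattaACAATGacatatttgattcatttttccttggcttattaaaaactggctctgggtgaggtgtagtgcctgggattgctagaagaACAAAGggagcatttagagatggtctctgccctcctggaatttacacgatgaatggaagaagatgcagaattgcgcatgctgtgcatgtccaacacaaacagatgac
The Cp stretch held ACAATG at -190 and ACAAAG at -107, in bases from the start site. Rfx4 held ACAATG at -22, and Fam181a held ACAAAG on the other strand, read here as CTTTGT, at -91. The Sox21 stretch held neither. Among all 32851 such RefSeq windows, 16.5% held ACAAAG and 10.7% held ACAATG. An arm of the RFX X-box, GTTGCC (in 10.4% of windows), the SMAD form GGCGCC (9.59%), the E-box CAGCTG (13%) and the DR5 direct repeat of the RA receptor (0.00913%) had no match in any of the 4 windows on either strand. The windows also differed in base composition, with a GC content of 37.2% for Cp, 54.8% for Rfx4 and for Fam181a, and 65.2% for Sox21, against a median of 52.4% over all windows.

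On mm10, with GENCODE M21, all 4 are protein-coding genes on different chromosomes. Rfx4 spans chr10:84756062-84906538 on the plus strand, Sox21 spans chr14:118233232-118237030 on the minus strand, Fam181a spans chr12:103310975-103317065 on the plus strand, and Cp spans chr3:19957054-20009145 on the plus strand. The RefSeq start of Fam181a used above lies 3984 bases inside its GENCODE span. Each gene overlaps a transcript of the opposite strand, and the strand setting of the authors' counting is not given in the sources used here, so reads of such a pair may not be separable. For Cp the partner is Hps3, which shares 13201 bases with it. Group means of Hps3 lay between 184 and 328 over the 15 groups, and those of Cp between 4.49 and 2657. Hps3 was also lower on days 5 and 9 in M, by a log2 change of -0.41 in M5 against R5 (adjusted p = 0.0087, limma), -0.41 in M5 against B5 (0.023), -0.41 in M9 against R9 (0.0075) and -0.48 in M9 against B9 (0.0027), and was not called in M4 against R4 (adjusted p = 0.1), M7 against R7 (0.069) or M7 against B7 (0.052). Its part in the levels of Cp was not tested.

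Rfx4 differed several-fold between libraries of the undifferentiated line. It was at 696, 1008 and 102 in D0, and at 60.7, 161 and 178 in D3. After RA alone it was at 1631, 649 and 2276 in R4, at 1224, 1138 and 552 in R6hr and at 1635, 4086 and 3889 in R5. Every library from RA alone on day 4 or 5 thus stood above every D3 library. It was then at 1576, 1626 and 646 in R7 and at 1086, 804 and 469 in R9. In the B groups it was at 1422, 1849 and 1159 in B6hr, 2814, 1388 and 2276 in B5, 1826, 1637 and 2957 in B7, and 2145, 1029 and 1058 in B9. These ranges overlapped with R on days 5 and 9 but lay above R7 on day 7. The M libraries were at 38.9, 9.82 and 37.9 in M4, 130, 17.7 and 235 in M5, 61.3, 103 and 250 in M7, and 132, 116 and 159 in M9. All 12 M libraries were below the lowest of the 27 R and B libraries, which was 469 in R9.

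Sox21 had its highest group means in R7 and R9, taken after RA had ended. Its level was 319, 312 and 443 in D0 and 44.0, 62.7 and 88.5 in D3, so the undifferentiated line carried more of this RNA than the progenitor stage. In the R groups Sox21 was at 429, 354 and 742 in R4, 536, 691 and 741 in R5, 989, 767 and 1126 in R7, and 900, 799 and 1133 in R9. The 6 h groups held the widest spread of Sox21, with 947, 573 and 88.1 in R6hr and 843, 576 and 92.7 in B6hr. The library numbered 3 was the low one in both. Sox21 was at 165, 185 and 233 in B5, 239, 258 and 167 in B7, and 258, 268 and 374 in B9, all below the R libraries of the same day. In the M groups it was at 20.3, 29.3 and 30.8 in M4, 55.1, 25.5 and 68.1 in M5, 24.1, 16.5 and 32.2 in M7, and 80.5, 47.2 and 58.7 in M9. The highest M library, in M9, stood just under the low R6hr and B6hr libraries.

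Fam181a was a gene of a short peak. It was at 25.3, 15.3 and 4.98 in D0 and at 12.5, 66.9 and 10.8 in D3. It reached 101, 37.9 and 300 in R4, was at 98.9, 139 and 29.1 in R6hr, and stood at 454, 1348 and 1483 in R5, above every library of any other group. It was then at 300, 341 and 95.6 in R7 and at 166, 183 and 79.7 in R9. Its levels in B6hr were 58.6, 89.2 and 38.1, in B5 215, 85.1 and 337, in B7 109, 126 and 202, and in B9 168, 93.3 and 97.6. B5 overlapped each of the other B groups. In the M groups Fam181a was at 7.02, 2.83 and 6.89 in M4, 3.95, 2.18 and 18.4 in M5, 4.26, 11.5 and 23.6 in M7, and 8.98, 15.4 and 17.5 in M9. No M library passed 23.6, while no R or B library was under 29.1.

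Cp covered the widest range of the 4 genes relative to its own lowest value. It was at 35.8, 73.1 and 6.43 in D0 and at 8.65, 21.2 and 21.2 in D3. In the R groups Cp was at 68.5, 47.7 and 166 in R4, 219, 255 and 178 in R6hr, 1362, 3905 and 2704 in R5, 1039, 1270 and 290 in R7, and 1135, 785 and 252 in R9. The large step fell between day 4.25 and day 5. The B libraries of Cp were at 95.1, 116 and 159 in B6hr, 1575, 513 and 1258 in B5, 134, 83.8 and 227 in B7, and 282, 71.3 and 81.2 in B9. B5 was thus high and later B groups were low. In the M groups Cp was at 3.28, 0.902 and 9.29 in M4, 12.8, 3.82 and 76.4 in M5, 3.49, 5.14 and 9.29 in M7, and 5.14, 7.92 and 13.3 in M9. The M5 library numbered 3 was the 1 M library of Cp above the lowest R4 library, at 47.7.

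**Figure D1:**
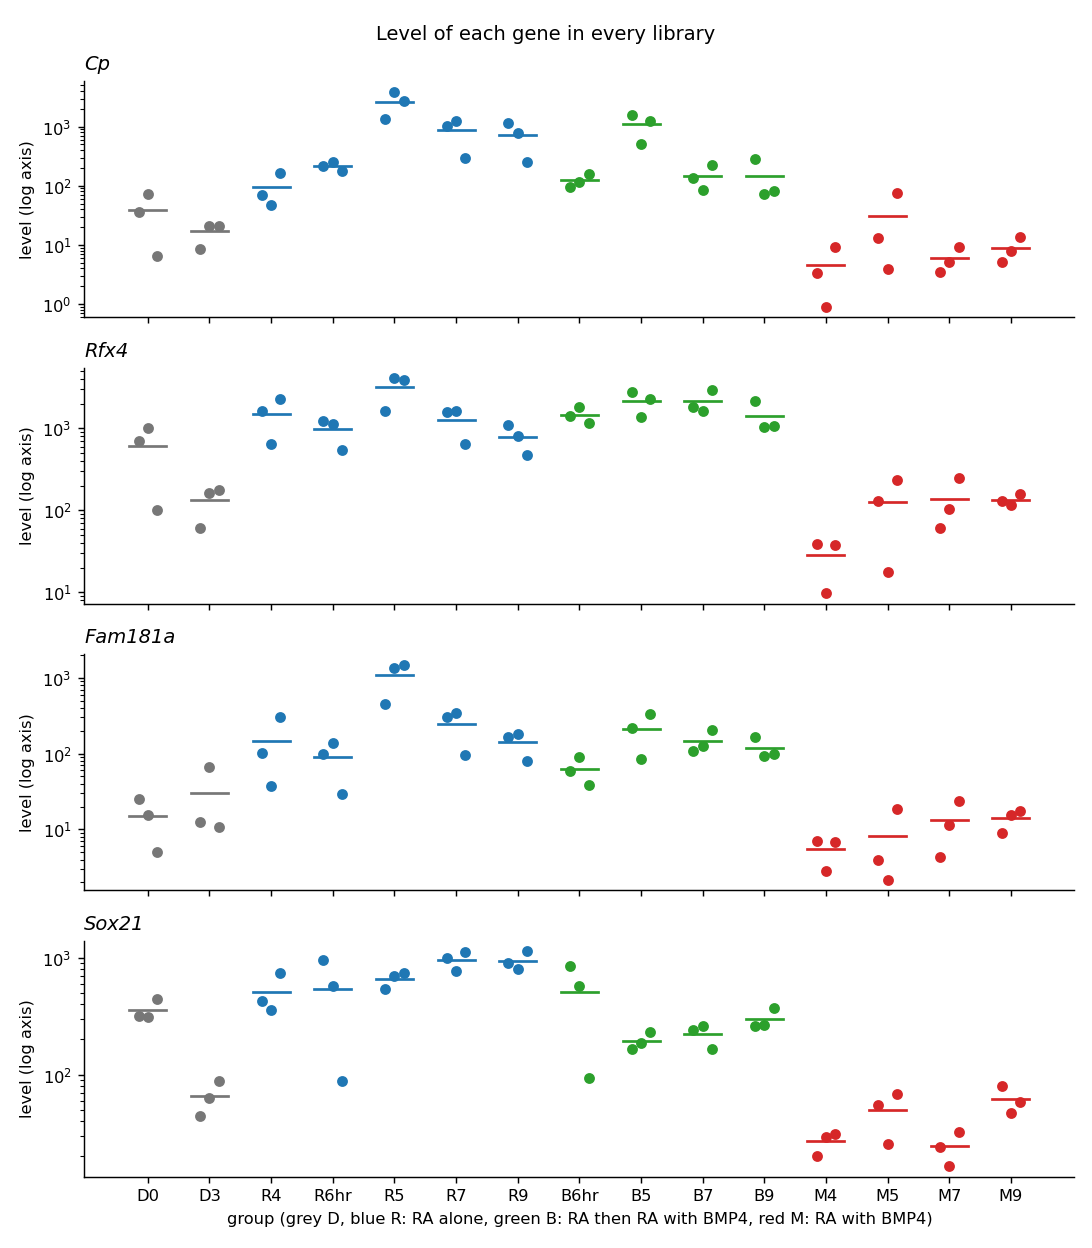
Level of Cp, Rfx4, Fam181a and Sox21 (log axis) in each of 45 libraries, with points for libraries, lines for the mean of a group of 3, and groups along the x axis. The M groups (red) lie below the R (blue) and B (green) groups of the same day in all 4 panels, with M medians of 6.53 for Cp, 109 for Rfx4, 8 for Fam181a and 31.5 for Sox21.

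The order of the group means shows how alike and how different the 4 courses were. R5 had the highest mean of Rfx4 (3203 ± 1362, SD, n = 3), Fam181a (1095 ± 559, n = 3) and Cp (2657 ± 1272, n = 3), while R7 had the highest mean of Sox21 (960 ± 181, n = 3). M4 had the lowest mean of Rfx4 (28.9 ± 16.5), Fam181a (5.58 ± 2.39) and Cp (4.49 ± 4.32), and M7 the lowest of Sox21 (24.3 ± 7.84). For Rfx4 and Cp the ranges of all 14 neighbouring pairs in the order overlapped, so no step between neighbours exceeded their spread. For Fam181a R5 was separate from R7, the next in order, and the other 13 neighbouring pairs overlapped. For Sox21 the order ran R7, R9, R5, R6hr, R4, B6hr, D0, B9, B7, B5, D3, M9, M5, M4, M7. In it R9 was separate from R5 and B5 from D3, and the other 11 neighbouring pairs overlapped apart from B9 and B7. Those were separate only by 258.04 in B9 against 257.99 in B7.

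From the undifferentiated line to day 3, the pair of transcription factor genes was lower and the other two were not called. Sox21 fell by 2.48 on the log2 scale (SE 0.58, adjusted p = 0.00051, limma), and its D0 and D3 libraries did not overlap, as for 23.7% of all genes in that direction. Rfx4 fell by 1.78 (SE 0.74, adjusted p = 0.041, limma). Fam181a changed by 0.69 (adjusted p = 0.47) and Cp by -0.70 (adjusted p = 0.49), neither called. Thus 2 of the 4 were called lower, where 24.0% of all genes were called lower. The Rfx4 result turned on the D0 libraries of low Pou5f1 and high Tubb3: without both of them its change was 0.23 and that of Cp 1.18, while the adjusted p of Rfx4 was 0.16 without D0 library 1, 0.24 without D0 library 2 and 0.18 without D3 library 1. With the compared libraries alone Rfx4 had an adjusted p of 0.17.

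In the first 24 h of RA alone all 4 genes rose. Rfx4 rose 11.1-fold from D3 to R4 (log2 change 3.47, SE 0.74, adjusted p = 0.00065, limma) and Sox21 rose 7.61-fold (2.93, SE 0.58, adjusted p = 0.00028). Cp rose 4.91-fold (2.30, SE 0.82, adjusted p = 0.038) and Fam181a 4.8-fold (2.26, SE 0.77, adjusted p = 0.03). The 4 of 4 called higher stand beside 11.7% of all genes, and their median change of 2.61 beside -0.01 for all genes. The R4 libraries were the higher side of a contrast that chose the genes, so these shares are not like for like. R4 lay wholly above D3 for Rfx4, Sox21 and Cp, as for 14.9% of all genes, and overlapped it for Fam181a, whose D3 library 2 (66.9) stood above R4 library 2 (37.9). The calls of Cp and Fam181a ended with the compared libraries alone (adjusted p = 0.061 and 0.21) and without both D3 libraries of high Tubb3 (changes of 3.10 and 2.97, adjusted p = 0.087 and 0.063). Leaving out 1 library ended the call of Cp for any D3 library and for R4 libraries 1 and 3 (adjusted p = 0.06 to 0.16), and that of Fam181a for D3 libraries 1 and 3 and R4 libraries 1 and 3 (0.062 to 0.19).

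When BMP4 was given with RA over those 24 h, none of the 4 was called higher, where 14.9% of all genes were. Rfx4 fell 4.74-fold from D3 to M4 (log2 change -2.24, SE 0.74, adjusted p = 0.019, limma). Cp (-1.94, adjusted p = 0.067), Fam181a (-1.83, adjusted p = 0.068) and Sox21 (-1.22, adjusted p = 0.11) were not called, although all 4 had an unadjusted p under 0.05. So 1 of the 4 was called lower, against 17.7% of all genes, and M4 lay wholly below D3 for 3 of the 4, against 17.7% of all genes by that rule too. The call of Rfx4 ended without D3 library 2 (adjusted p = 0.074), D3 library 3 (0.086) or M4 library 2 (0.14), with the compared libraries alone (0.088), and without both D3 libraries of high Tubb3, where the change was -1.27 (0.45). The low M levels of Cp, Fam181a and Sox21 were therefore not shown to be a fall from the day 3 level. The M4 libraries also entered the contrasts that chose the genes.

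**Figure D2:**
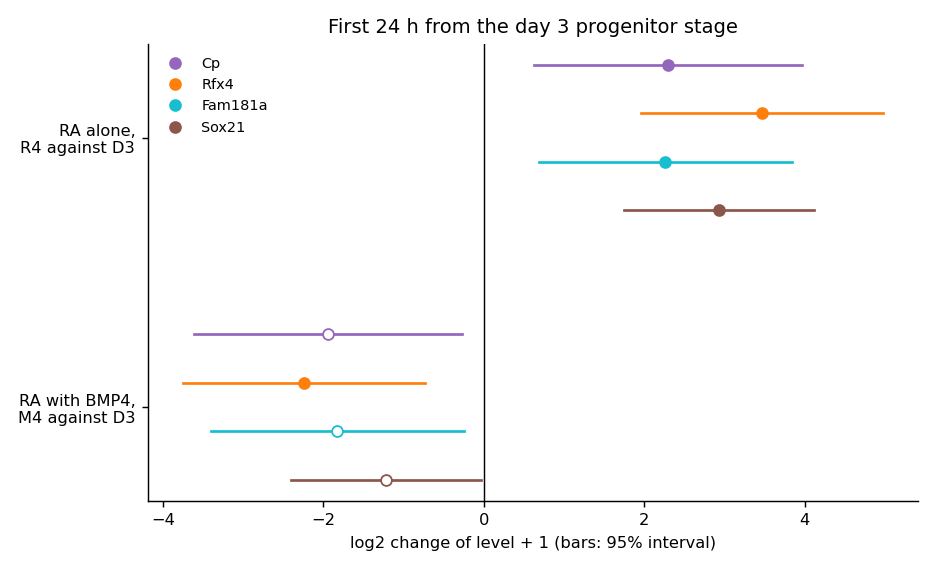
Log2 change of level + 1 from D3 to R4 (RA alone) and from D3 to M4 (RA with BMP4), with points for the fitted change of 3 against 3 libraries and bars for its 95% interval. Filled points passed an adjusted p of 0.05: all 4 genes in R4, from 2.26 to 3.47, and only Rfx4, at -2.24, in M4.

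On the second day of RA alone, Cp and Fam181a rose and Rfx4 and Sox21 were not called. Cp rose 29.4-fold from R4 to R5 (log2 change 4.88, SE 0.82, adjusted p = 0.00015, limma) and Fam181a rose 9.13-fold (3.19, SE 0.77, adjusted p = 0.0063). Rfx4 (1.14, 95% interval -0.37 to 2.65, adjusted p = 0.32) and Sox21 (0.43, -0.75 to 1.61, adjusted p = 0.66) were not called. The 2 of 4 called higher stand beside 7.09% of all genes. R4 and R5 were both the higher side of contrasts that chose the genes, so these shares are not like for like. The call of Fam181a ended without R4 library 2 (adjusted p = 0.059) or R5 library 3 (0.05) and with the compared libraries alone (0.074), while that of Cp held in those fits. Whether the step differed between genes was not tested. From R6hr to R5, a step not fitted here, Rfx4 passed as well in the authors' deposited table. For R6hr over R5 the authors' deposited table gave a log2 fold change of -3.62 for Cp (false discovery rate 0.00016), -3.63 for Fam181a (9.7e-05), -1.73 for Rfx4 (0.047) and -0.30 for Sox21 (0.75).

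In the R groups taken after RA had ended, no further change of the 4 was called by limma. From R5 to R7 the log2 change was -2.17 for Fam181a (adjusted p = 0.064), -1.74 for Cp (0.17), -1.32 for Rfx4 (0.26) and 0.54 for Sox21 (0.6), where 11.2% of all genes were called, and 2 of the 4 had an unadjusted p under 0.05. R7 lay wholly below R5 for 3 of the 4, a pattern that 15.2% of all genes showed, and wholly above it for Sox21, as for 13.0% of all genes. Without R5 library 1 the fall of Fam181a was called (adjusted p = 0.041). From R7 to R9 the changes lay between -0.67 and -0.02 and none was called, against 20.3% of all genes, with none at an unadjusted p under 0.05. Same-numbered libraries of R7 and R9 deviated together, and with these libraries alone and the replicate number as a block Rfx4 (-0.67, adjusted p = 0.0022) and Fam181a (-0.67, adjusted p = 0.017) were called lower in R9.

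The comparison of B with R asks what BMP4 given from the second 24 h of RA did to these genes. At 6 h, the 4 genes were not called between B6hr and R6hr. The log2 change was -0.83 for Cp (95% interval -2.50 to 0.84), 0.66 for Rfx4 (-0.85 to 2.17), -0.33 for Fam181a (-1.91 to 1.24) and -0.03 for Sox21 (-1.21 to 1.15), with adjusted p from 0.6 to 0.98 by limma. None had an unadjusted p under 0.05, and 0.0178% of all genes were called. The B6hr libraries lay wholly below the R6hr ones for Cp, a pattern that 17.6% of all genes showed. Same-numbered libraries of these groups deviated together, and with these libraries alone and the replicate number as a block Cp was called lower (adjusted p = 0.024) and Rfx4 higher (adjusted p = 0.04) in B6hr, in a fit that called 2900 genes. In library 3 of both groups other SOXB genes were low with Sox21: Sox1 was at 460 against 3111 and 1749 in R6hr and at 760 against 2538 and 1442 in B6hr. Without number 3 in both groups, an alternative added after the data were seen, none of the 4 was called between B6hr and R6hr. The changes were then -1.16 for Cp, 0.46 for Rfx4, -0.69 for Fam181a and -0.08 for Sox21, with adjusted p of 0.58, 0.83, 0.74 and 0.94 by limma.

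At the end of the BMP4 pulse on day 5, none of the 4 was called between B5 and R5 by limma, where 5.99% of all genes were. That share rests on 672 genes, and the number was 196 without B5 library 2, 222 without R5 library 3, 336 without R5 library 2, 341 without B5 library 1, 594 without R5 library 1 and 897 without B5 library 3. The log2 change was -2.39 for Fam181a (SE 0.77, adjusted p = 0.059), -1.75 for Sox21 (SE 0.58, adjusted p = 0.067), -1.27 for Cp (SE 0.82, adjusted p = 0.4) and -0.52 for Rfx4 (SE 0.74, adjusted p = 0.76). B5 lay wholly below R5 for Fam181a and Sox21, which had an unadjusted p under 0.05, and overlapped it for Cp and Rfx4. That pattern was shown by 10.8% of all genes. Fam181a and Sox21 were near the threshold and passed it in other fits. The authors' deposited table gave a false discovery rate of 0.024 for Fam181a and 0.018 for Sox21 in this comparison. Fam181a was called without R5 library 1 or B5 library 3 (adjusted p = 0.038 in both), and Sox21 with the compared libraries alone (0.026).

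By day 7, after the pulse had ended, Cp and Sox21 were lower in B than in R, and Rfx4 and Fam181a were not called. Sox21 was 4.35-fold lower in B7 than in R7 (log2 change -2.12, SE 0.58, adjusted p = 0.0093, limma), with means of 221 ± 47.9 and 960 ± 181 (SD, n = 3 each). Cp was 5.28-fold lower (-2.40, SE 0.82, adjusted p = 0.032), with means of 148 ± 72.8 and 866 ± 512. Rfx4 was at 0.80 (95% interval -0.70 to 2.31, adjusted p = 0.46) and Fam181a at -0.60 (-2.18 to 0.97, adjusted p = 0.61). The 2 of 4 called lower stand beside 11.6% of all genes. B7 and R7 were both the higher side of contrasts that chose the genes, so these shares are not like for like. B7 lay wholly below R7 for both, as for 19.6% of all genes, and wholly above it for Rfx4, as for 20.6%. The call of Cp ended without R7 library 1 or 2 or B7 library 1 or 2 (adjusted p = 0.083 to 0.12) and with the compared libraries alone (0.052).

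On day 9 the same pair had the largest differences, but neither was called by limma. The log2 change from R9 to B9 was -2.36 for Cp (SE 0.82, adjusted p = 0.056) and -1.66 for Sox21 (SE 0.58, adjusted p = 0.058), both with an unadjusted p under 0.05, while 11.8% of all genes were called. B9 lay wholly below R9 for Sox21, as for 16.3% of all genes, and overlapped it for the other genes. Rfx4 was at 0.84 (95% interval -0.67 to 2.34) and Fam181a at -0.22 (-1.79 to 1.36). The authors' deposited table gave a false discovery rate of 0.027 for Cp and 0.022 for Sox21. Cp was called without R9 library 3 (adjusted p = 0.041) or B9 library 1 (0.042), and Sox21 with the compared libraries alone (0.0041). The change from day 5 to day 9 did not pass a test of its difference between B and R for any of the 4. That difference was 2.18 for Fam181a (95% interval -0.05 to 4.41), 1.35 for Rfx4 (-0.78 to 3.48), 0.10 for Sox21 (-1.57 to 1.77) and -1.08 for Cp (-3.44 to 1.28), with none at an unadjusted p under 0.05 and 2.11% of all genes called.

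**Figure D3:**
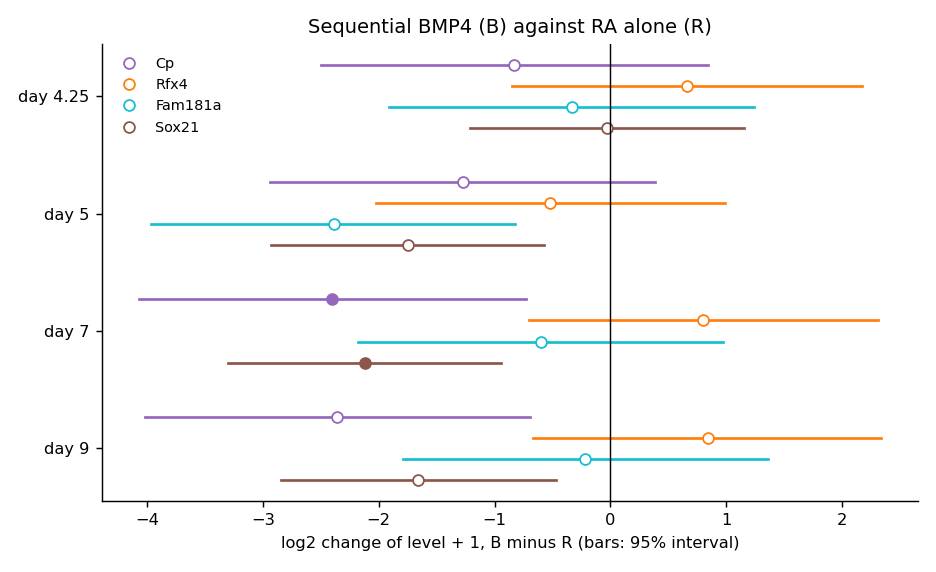
Log2 change of level + 1 in B against R at day 4.25, 5, 7 and 9, with points for the fitted change of 3 against 3 libraries and bars for its 95% interval. Filled points passed an adjusted p of 0.05, which only Cp (-2.40) and Sox21 (-2.12) did, on day 7, and Rfx4 lay above 0 at day 4.25, 7 and 9.

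From B5 to B7, Cp was called lower and the other 3 genes were not called. Cp fell 7.31-fold from B5 to B7 (log2 change -2.87, SE 0.82, adjusted p = 0.008, limma), where 15.4% of all genes were called lower. B7 lay wholly below B5 for Cp, as for 21.3% of all genes. Over the same step Fam181a was at -0.38 (95% interval -1.96 to 1.19) and Sox21 at 0.18 (-1.01 to 1.36), and Rfx4 was not called, with means of 2160 ± 720 in B5 and 2140 ± 714 in B7 (SD, n = 3 each). From B7 to B9 none of the 4 was called or had an unadjusted p under 0.05, with changes from -0.64 to 0.44, while 14.2% of all genes were called. The step from B6hr to B5 was not fitted here. For B6hr over B5 the authors' deposited table gave a log2 fold change of -3.17 for Cp (false discovery rate 0.00081) and 1.39 for Sox21 (0.038), so by that table Cp was higher and Sox21 lower in B5. For the same comparison the authors' deposited table gave -1.76 for Fam181a (0.062) and -0.54 for Rfx4 (0.57).

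Within the M course no change of the 4 was called by limma. From M4 to M5 the log2 change was 1.98 for Cp (SE 0.82) and 1.70 for Rfx4 (SE 0.74), both with an unadjusted p under 0.05, and 10.4% of all genes were called. Without M5 library 2, the lowest M5 library for both genes, Cp was at 2.90 (adjusted p = 0.038) and Rfx4 at 2.78 (0.017). From M5 to M7 changes ran from -1.39 to 0.80, with none at an unadjusted p under 0.05 and 12.5% of all genes called. From M7 to M9 Sox21 was at 1.34 (95% interval 0.16 to 2.52), the 1 gene with an unadjusted p under 0.05, and 4.00% of all genes were called.

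The M levels against R and B, which chose the genes, are described without a test. The R and B libraries held 1576 of Rfx4 in the median (469 to 4086, n = 27) and the M libraries 109 (9.82 to 250, n = 12). For Sox21 the medians were 536 (88.1 to 1133) and 31.5 (16.5 to 80.5), for Fam181a 126 (29.1 to 1483) and 8 (2.18 to 23.6), and for Cp 252 (47.7 to 3905) and 6.53 (0.902 to 76.4). On each shared day M lay wholly below R and below B for all 4 genes. Of all genes, 13.4% lay wholly below in M4 against R4, 28.7% in M5 against R5, 21.8% in M7 against R7 and 29.7% in M9 against R9. Against B those shares were 15.2% on day 5, 24.0% on day 7 and 30.2% on day 9, and nothing is read from them here because the genes were chosen on these contrasts.

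The fold difference between M and R is given by day. Rfx4 was 52.4-fold lower in M4 than in R4, 35.6-fold on day 5, 10.1-fold on day 7 and 5.48-fold on day 9. Its M levels overlapped from day 5 on. Cp was 18.9-fold lower on day 4, 141-fold on day 5, 111-fold on day 7 and 66-fold on day 9, and Fam181a 17-fold, 144-fold, 18.3-fold and 9.34-fold lower on those days. Sox21 was 17.7-fold lower on day 4, 13.9-fold on day 5, 38.9-fold on day 7 and 15.2-fold on day 9. Some of these days overlapped in the range of changes found when 1 library was left out. They were days 5, 7 and 9 for Cp and days 4 and 5 for Rfx4. For Sox21 they were days 4, 5 and 9, and for Fam181a day 4 with days 7 and 9. With 1 library left out, the log2 change of Cp ran from -8.22 to -6.22 in M5 against R5 and from -7.45 to -6.39 in M7 against R7. That of Rfx4 ran from -6.23 to -5.09 in M4 against R4 and from -5.91 to -4.08 in M5 against R5. Against B, Sox21 was 4.13-fold lower on day 5, 8.94-fold on day 7 and 4.81-fold on day 9, and Cp 58.3-fold, 20.9-fold and 12.9-fold lower on those days. Fam181a was 27.4-fold, 12-fold and 8.04-fold lower in M than in B. For Rfx4 M was 24.9-fold below B on day 5, 17.6-fold on day 7 and 9.79-fold on day 9. How far a gene's contrast with B lies from that with R is its change between B and R, tested above. M4 and B5, each taken after 24 h of BMP4, differed 230-fold in Cp, 81-fold in Rfx4, 29.6-fold in Fam181a and 7.07-fold in Sox21, with M4 wholly below B5 in all 4 (10.7% of all genes), though they also differ by a day of RA.

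Cp, Rfx4 and Fam181a also varied together between libraries of one group, with lower values for Sox21. Pearson's r of the deviations of log2(level + 1) from the group means over the 45 libraries was 0.89 for Cp with Rfx4, 0.79 for Rfx4 with Fam181a and 0.76 for Cp with Fam181a. It was 0.34 for Sox21 with Fam181a, 0.29 with Rfx4 and 0.07 with Cp. Over the 15 group means all 6 pairs had an r of 0.80 to 0.94. These are descriptions, since genes of one library share its normalization and its mix of cells and the group means hold the contrast that chose the genes.

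**Figure D4:**
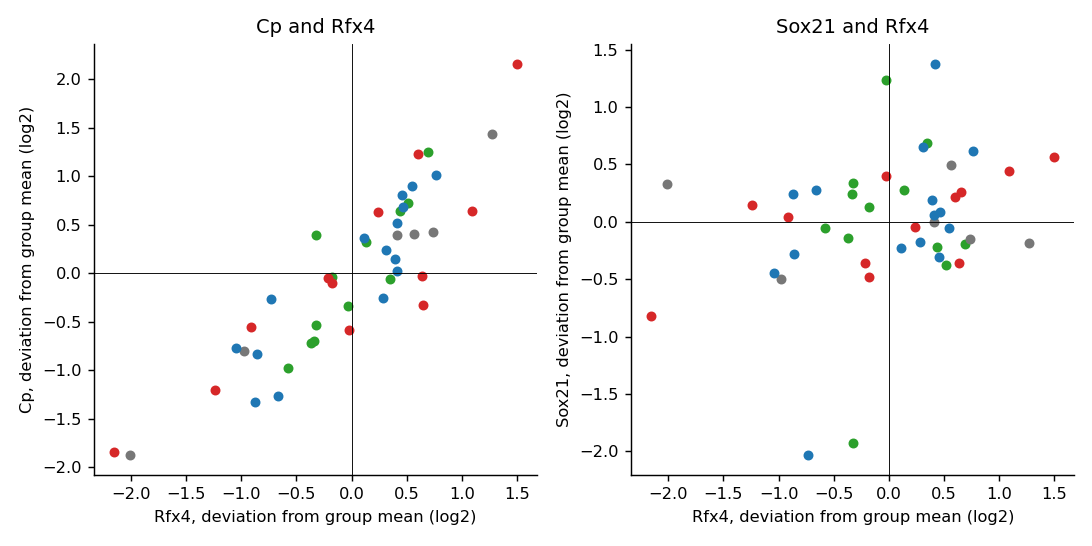
Deviation of Cp (left) and Sox21 (right) from the mean of their group against that of Rfx4, in log2(level + 1), with 1 point for each of 45 libraries coloured by treatment (grey D, blue R, green B, red M). Cp follows Rfx4 (r = 0.89) and Sox21 does so less (r = 0.29), with the libraries numbered 3 of R6hr and B6hr lowest for Sox21.

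Other genes of the table followed the same courses over the 15 group means. Nearest to Rfx4 were Lmx1a (r = 0.931), Lrrtm3 (0.927), Pfkfb4 (0.926), Ndp (0.925) and Prdm13 (0.917). Lmx1a encodes a LIM homeodomain factor of the roof plate and had a mean of 821 in R5, 1774 in B5 and 88.6 in M5. Among the nearest to Sox21 were Gm5607 (0.964), Fzd9 (0.957), Muc1 (0.950) and Ank (0.928). Gm5607, named Sox1ot by RefSeq, is a long non-coding RNA gene on chromosome 8 and had a mean of 55 in R5, 12.1 in B5 and 1.72 in M5. Nearest to Fam181a were Prdm13 (0.969), 2610100L16Rik (0.968), Pfkfb4 (0.962), Fap (0.960) and Zic1 (0.959). Nearest to Cp were Scube2 (0.959), Prdm13 (0.957), Cdon (0.950), 2610034M16Rik (0.946) and Lmx1a (0.944). Prdm13, a PR-domain factor of dorsal spinal progenitors at chr4:21677480-21685963 on mm10, was thus among the nearest 5 for Rfx4, Fam181a and Cp but not for Sox21. Its mean was 71.5 in D3, 2072 in R5, 802 in B5 and 43.4 in M5. Genes of the neighbour lists of 2 members are not independent of each other, because the members themselves follow one another.

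Relatives of the 4 genes are given beside them. Of the SOXB genes other than Sox21, 3 of 4 were in the table. All 3 rose from D3 to R4, where 11.7% of all genes were called higher. Sox1 was at 4.73 (adjusted p = 1.2e-07, limma), Sox3 at 1.84 (0.0045) and Sox2 at 1.32 (0.0014), a median of 1.84 against -0.01 over all genes. In M5 against R5, where 21.0% of all genes were called higher and 23.3% lower, all 3 were lower, with Sox1 at -5.03, Sox3 at -4.30 and Sox2 at -2.65. In B7 against R7, where 11.6% of all genes were called lower, Sox1 (-2.24, adjusted p = 0.0052) and Sox3 (-1.63, 0.015) were lower and Sox2 was at 0.15 (0.76). Of the other RFX genes 4 of 7 were in the table, none was called from D3 to R4, and in M5 against R5 Rfx1 was higher (0.49, adjusted p = 0.0021), Rfx3 lower (-0.83, 0.0086), and Rfx2 and Rfx5 at -0.04 and 0.04. In B7 against R7 Rfx5 (-0.37, adjusted p = 0.013) and Rfx3 (-0.73, 0.037) were lower. In M9 against R9, 2 of the 4 RFX genes were higher and 2 lower, where 27.5% of all genes were called higher and 23.5% lower. Fam181b, the paralog of Fam181a, was not called from D3 to R4 (0.20, adjusted p = 0.86) and was lower in M5 than in R5 (-3.69, 2.1e-05), with levels of 107, 114 and 355 against 1153, 2535 and 3200. Heph, the membrane ferroxidase hephaestin, was not called in M5 against R5 (-0.38, adjusted p = 0.55).

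Genes of iron handling, cilia and Hedgehog signalling, the pathways in which ceruloplasmin and RFX4 act, were called in both directions. Of 16 genes of iron and copper handling other than Cp, 10 were in the table. From D3 to R4, where 12.6% of all genes were called lower, none was higher and 2 were lower, the ferritin heavy chain gene Fth1 (-0.46, adjusted p = 0.007, limma) and the copper pump gene Atp7b (-0.75, 0.012), with a median of -0.17 against -0.01 over all genes. In M5 against R5, 21.0% of all genes were called higher and 23.3% lower. There 5 of these iron and copper genes were higher and 2 lower. Fth1 was at 0.70, the iron exporter gene Slc40a1 at 1.51 and the copper transporter gene Slc31a1 at -0.33. Of 16 genes of cilia and Hedgehog signalling 11 were in the table. From D3 to R4, 3 of them rose and none fell, where 11.7% of all genes were called higher. The median of the 11 was 0.24, against -0.01 over all genes. Gli2 at 1.57 and Hhip at 2.61 were among the 3. In M5 against R5, where 21.0% of all genes were called higher and 23.3% lower, 3 were higher and 3 lower (median 0.09, against -0.02 over all genes). Gli1 was at 2.92, Gli2 at 0.77 and Hhip at -1.42.

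Neural progenitor genes are given beside the 4 genes. Of 18 such genes, all measured, 9 rose and 1 fell from D3 to R4, where 11.7% of all genes were called higher and 12.6% lower. Their median change was 1.36, against -0.01 over all genes. The rises were led by Pax6 at 6.56 (adjusted p = 4.4e-10, limma) and Sox1. In M4 against D3, 2 rose and 6 fell, with a median of -0.93, where 14.9% of all genes were called higher and 17.7% lower. In M5 against R5 all 18 were lower, with a median of -2.99, where 21.0% of all genes were called higher and 23.3% lower. In M7 against R7, 13 were lower (20.6% of all genes), and in M9 against R9, 9 were lower (23.5% of all genes). Against B, 14 were lower in M5 (9.23% of all genes), 12 were lower and 1 higher in M7 (19.9% of all genes lower), and 9 were lower and 3 higher in M9 (23.7% of all genes lower and 27.8% higher). Against R, 6 were lower in B5 (3.23% of all genes) and 9 in B7 (11.6% of all genes). None was called in B9 against R9, where 11.8% of all genes were called in either direction. Their summed level was 37269 to 50913 in R4, 10400 to 22003 in M4, 65953 to 117638 in R5, 26030 to 56478 in B5 and 10658 to 21998 in M5. On day 9 it was 20735 to 25191 in M9 and 24372 to 37827 in B9, which overlap. In the astroglial and radial glial list, whose cells can make ceruloplasmin, 13 of 15 genes were in the table, and 6 were higher and 3 lower in M5 than in R5, with Ptprz1 at -3.74 and Apoe at 1.27. Their summed level was 9975 to 13106 in R5 and 12599 to 14907 in M5.

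Markers of other cell types differed between the same groups. In M5 against R5, 21.0% of all genes were called higher and 23.3% lower. Of 12 lateral mesoderm genes, 10 were higher and 1 lower in M5 than in R5. Hand1 was at 8.54 (adjusted p = 6e-09, limma) and Tbx20 at 6.19 (2.6e-09). Hand1, a transcription factor gene of lateral mesoderm and heart, was at 5262, 6606 and 5277 in M5 and at 22.0, 9.23 and 14.1 in R5. The summed level of the lateral mesoderm list was 1302 to 2344 in R5, 5918 to 9477 in B5 and 20389 to 25514 in M5. For 12 surface ectoderm genes it was 4046 to 5343 in R4 and 12637 to 17956 in M4, and 8 were higher and none lower, with Trp63 at 4.85 and Krt8 at 2.01, where 6.76% of all genes were called higher. The 14 pan-neuronal genes summed to 3959 to 9844 in R5 and 1633 to 2148 in M5, but to 45152 to 61187 in B7 against 6638 to 23611 in R7. Tubb3 alone was at 24656, 20828 and 28015 in B7, a large part of that sum. In B7 against R7, 4 of the 14 were called higher and none lower, where 2661 of all 11220 genes were called in either direction. The other lists, for M5 against R5, gave 6 higher and 1 lower of 14 BMP response genes, 3 higher and 1 lower of 9 neural crest genes, 1 higher and 7 lower of 11 paraxial mesoderm genes, 7 higher and none lower of 9 endothelial and blood genes, 8 higher and none lower of 9 pluripotency genes, and none higher and 7 lower of 9 roof plate genes. Pluripotency and paraxial mesoderm genes were called otherwise on day 9. Of the 9 pluripotency genes none was higher, with 7 lower in M9 than in R9 and 9 lower than in B9. Of the 11 paraxial mesoderm genes 6 were higher and 3 lower in M9 than in R9. Of all genes, 27.5% were called higher and 23.5% lower in M9 against R9, and 27.8% higher and 23.7% lower in M9 against B9. No listed marker was at 0 in any library, since no level in the table was 0. The part of these markers in the levels of Cp, Rfx4, Fam181a and Sox21 was not tested.

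**Figure D5:**
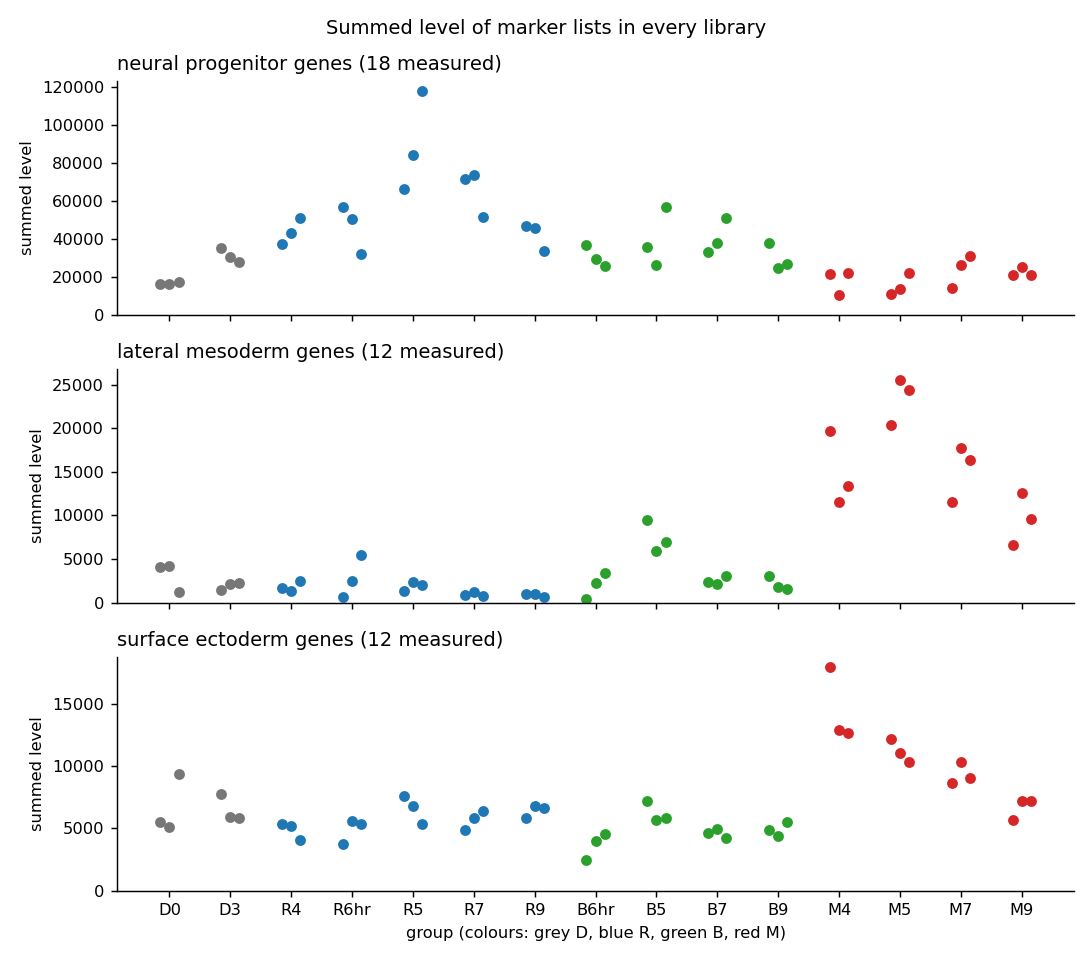
Summed level of 18 neural progenitor, 12 lateral mesoderm and 12 surface ectoderm genes in each of 45 libraries, 1 point for each library and groups along the x axis. The neural progenitor sum is 65953 to 117638 in R5 and 10658 to 21998 in M5, while the lateral mesoderm sum is 1302 to 2344 and 20389 to 25514.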

How the data were processed

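The files hold 1 table of 45 libraries. The levels, deposited by the authors as a normalized signal, carry no unit, and none is 0 and 1 is a whole number, so no count test was used. Columns headed fpkm, deposited by the authors, equal the level to the power 0.3 times constants (residual SD 0.0008) and were taken as a score that was left unused, like a deposited rank score. The authors' log2 fold changes, deposited p-values and false discovery rates cover 12 comparisons. Per the labels' protocols, a NuGEN mRNA kit was used before NovaSeq sequencing. Per the submitters' processing notes, Picard, edgeR and mm10 were used, with no step given for each, and for the aligner, the counter and the annotation none is given in the sources used here.

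Limma 3.58.1 in R 4.3.3 was fitted to log2(level + 1) with a mean trend and robust empirical Bayes moderation. Each group had its own coefficient and all libraries were fitted together, so each comparison uses the spread of all groups. Genes had to reach level 1 in 3 or more libraries, which removed 0 genes. The fit was tested on simulated data. The Benjamini-Hochberg adjustment was made over 11220 genes in each comparison, and p-values measure the spread between libraries, which the labels do not tie to a numbered differentiation. Named genes are the 4 members, the 5 genes nearest to each over group means, their relatives, and up to 4 genes per list with the smallest adjusted p. A gene that this rule would name is not reported here. Chosen after values were seen were Hps3, the libraries set apart by Pou5f1 and Tubb3, Hand1 and Fam181b levels, and some list examples beyond that rule. The members and the gene lists were chosen with earlier results of these data known. Replicate numbers were taken to pair libraries where every same-numbered correlation of deviations from group means was over 0.1, as for R9 with R7 (0.51, 0.32 and 0.74), B6hr with R6hr (0.59, 0.19 and 0.46), M9 with M7 (0.25, 0.28 and 0.27) and M4 with B5 (0.62, 0.67 and 0.61). Alternatives were pseudocounts of 0.1 and 5, quantile normalization, no filter, a block for the replicate number, fits of the compared libraries only, and leaving out each library. Added after seeing the data were that block in fits of the compared libraries, the deposited test of the authors, the 6 h groups without numbers 1 or 3, and fits without the D0 or D3 libraries of high Tubb3. Python 3.11.15, pandas 2.3.3 and matplotlib 3.10.9 were used for tables and figures.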

Additional observations from a re-analysis of the deposited data

How the results depend on the processing

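The read depth behind each level is unknown, so the precision of low values such as those of Cp in M4 rests on the spread of 3 libraries. Results are counts of the 4 genes called. A replicate block over all libraries and no filter changed no call of the 4 genes. With pseudocount 0.1, M4 against D3 gave 2 in place of 1. With pseudocount 5, R7 against R5, B5 against R5 and B9 against R9 each gave 1 in place of 0. Quantile normalization gave 1, 1 and 2 there, and reversed 4 changes that were not called: Sox21 in R9 against R7 (0.09), Sox21 in B6hr against R6hr (0.03), Rfx4 in B7 against B5 (0.06) and the Sox21 difference of B9 minus B5 and R9 minus R5 (-0.22).

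The compared libraries alone gave 1 in D3 against D0 (in place of 2), 2 in R4 against D3 (4), 0 in M4 against D3 (1), 1 in R5 against R4 (2), 1 in B5 against R5 (0), 1 in B7 against R7 (2) and 1 in B9 against R9 (0). With the replicate block in those libraries the counts were 1 in D3 against D0, 1 in R4 against D3, 0 in M4 against D3, 0 in R5 against R4, 2 in R9 against R7, 2 in B6hr against R6hr, 0 in B7 against R7, 3 in B9 against R9 and 1 in M7 against M5. Replicate numbers do not pair the libraries in these comparisons other than R9 against R7 and B6hr against R6hr. Fewer libraries estimate the spread in these fits, and over all genes the compared libraries alone called 97 in place of 672 in B5 against R5, 1475 in place of 2661 in B7 against R7, 1046 in place of 2722 in R4 against D3, 920 in place of 3657 in M4 against D3, 477 in place of 1430 in R5 against R4, 236 in place of 1260 in R7 against R5, 4001 in place of 6161 in D3 against D0, 925 in place of 2274 in R9 against R7, 496 in place of 1163 in M5 against M4, 168 in place of 449 in M9 against M7 and 847 in place of 2 in B6hr against R6hr. The block in those libraries called 3081 genes in D3 against D0, 161 in R4 against D3, 75 in M4 against D3, 2 in R5 against R4, 0 in R7 against R5, 3985 in R9 against R7, 2900 in B6hr against R6hr, 2 in B5 against R5, 0 in B7 against R7, 2219 in B9 against R9 (1328 in the reported fit), 2118 in B7 against B5 (3501), 146 in B9 against B7 (1596), 185 in M5 against M4 and 2953 in M7 against M5 (1406), and 61 for the difference of B9 minus B5 and R9 minus R5 (237), for which quantile normalization called 369. In B6hr against R6hr pseudocount 0.1 called 0 genes, pseudocount 5 called 9 and quantile normalization 1. The authors' deposited test called 2 in B5 against R5 and 2 in B9 against R9, where the fit here called 0.

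Leaving out 1 library gave 1 to 2 in D3 against D0, 2 to 4 in R4 against D3, 0 to 3 in M4 against D3, 1 to 2 in R5 against R4, 0 to 1 in R7 against R5, 0 to 1 in B5 against R5, 1 to 2 in B7 against R7, 0 to 1 in B9 against R9 and 0 to 2 in M5 against M4. Over all genes it called 517 to 1549 in R5 against R4, 636 to 1083 in M5 against M4, 0 to 10 in B6hr against R6hr, 629 to 1037 in R7 against R5, 196 to 897 in B5 against R5, 123 to 329 for the difference of B9 minus B5 and R9 minus R5, 2104 to 3533 in B7 against B5, 882 to 1228 in M7 against M5, 1353 to 1894 in R9 against R7, 1441 to 2155 in B7 against R7, 915 to 1449 in B9 against B7, 193 to 371 in M9 against M7 and 556 to 1141 in B9 against R9. The 3 in M4 against D3 came without D3 library 1, and 2 without M4 library 3. It turned the sign of changes that were not called: Cp in D3 against D0 (-1.63 to 0.03), R9 against R7 (-0.92 to 0.38) and B9 against B7 (-0.84 to 0.15), Rfx4 in B7 against B5 (-0.29 to 0.22), M7 against M5 (-0.58 to 1.25) and M9 against M7 (-0.25 to 0.75), Fam181a in D3 against D0 (-0.12 to 1.16), B6hr against R6hr (-0.99 to 0.12), B7 against B5 (-0.93 to 0.06), B9 against R9 (-0.59 to 0.00), M5 against M4 (-0.65 to 0.65) and M9 against M7 (-0.28 to 0.83), and Sox21 in R9 against R7 (-0.18 to 0.10), B6hr against R6hr (-1.05 to 0.94) and the difference of B9 minus B5 and R9 minus R5 (-0.07 to 0.23). Without number 1 in either 6 h group Sox21 was at 0.04 in B6hr against R6hr. Without both D0 libraries of high Tubb3, D3 against D0 gave 1, with Cp at 1.18 and Rfx4 at 0.23. Without both D3 libraries of high Tubb3, R4 against D3 gave 2 (1275 of all genes in place of 2722), M4 against D3 gave 0 (1974 in place of 3657), and Fam181a in D3 against D0 was at -0.02. The cause was not tested.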
